A study of Mus musculus with 6 samples.

Results

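Activin and Nodal signalling was followed in mouse embryonic stem cells through 8 genes: the ligand genes Inhbb and Nodal, the extracellular inhibitor genes Lefty1, Lefty2 and Fst, the receptor gene Acvr2b, and the intracellular inhibitor genes Smad7 and Skil. They were picked by gene symbol from a list of 9 pathway names, and 8 of the 9 were found among the 17485 gene names of the count tables; Inhba was not analysed here. The cells were of the E14 line, a pluripotent stem cell line derived from 129/Ola mice, grown on gelatin with serum and leukaemia inhibitory factor. Treatment began 24 h after seeding. One group received 250 µg/mL cycloheximide, which blocks translation elongation, in 0.007% ethanol for 3 h, another received the same for 6 h, and the control group received ethanol alone for 9 h. Each of the 3 groups had 2 libraries, so exposure time differs between control and treated cells along with the drug and the 2 cannot be told apart. Nothing in the labels says whether the 2 libraries of a group came from separate cultures, so p-values measure only the spread between these libraries.

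As background, Activins (dimers of inhibin beta chains) and Nodal bind a type II receptor such as the product of Acvr2b together with a type I receptor, and Nodal also needs an EGF-CFC co-receptor. The activated type I receptor phosphorylates SMAD2 and SMAD3, which enter the nucleus with SMAD4 and act with partners such as FOXH1. Several target genes of the pathway encode its own inhibitors, among them Lefty1, Lefty2, Smad7 and Skil. In mouse embryonic stem cells autocrine Nodal and Activin signalling is known to be active, and in the embryo it drives mesendoderm formation.

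Library totals ranged from 9385447 to 27351079 counts, with the 6 h libraries the deepest, and 12755 genes passed the filter on low counts, including 8 of the 8 members. Levels are CPM, counts divided by the library total after its adjustment by the trimmed mean of M values (TMM), and a count of 3, used as the floor for detection, equalled 0.099 to 0.367 CPM. The 6 pluripotency markers examined summed to 5330 to 5530 CPM in control, 6570 to 6890 at 3 h and 4590 to 4610 at 6 h. Of these 6, Sox2 alone was called (edgeR adjusted p under 0.05) at 3 h, higher, from 2280 and 2600 to 3850 and 3960 CPM. Sox2 carried the rise of the sum at 3 h and was at 2340 and 2380 CPM at 6 h. Against control Zfp42 and Dppa5a were called lower at 6 h, and between 6 h and 3 h Sox2 and Zfp42 were called lower. The 5 primitive endoderm markers summed to 5.41 to 7.58 CPM in control, 14 to 18.8 at 3 h and 12.2 to 14.2 at 6 h, with each of the 5 detected in every group, and 0 of the 5 were called in any comparison. The 4 neural markers summed to 327 to 338, 281 to 323 and 136 to 142 CPM, with Neurog2 at 0 in control. Tubb3 carried that fall, from 262 and 267 CPM in control to 75.1 and 68.4 at 6 h. At 6 h it was called lower against control and against 3 h, while Sox1 and Pax6 were not called. Of the 5 fibroblast markers 3 were listed, and they summed to 7.93 to 9.29, 4.39 to 7.69 and 2.99 to 6.11 CPM with Col1a2 at 0 in control and at 3 h. Most of that sum was Thy1, at 6.3 and 7.82 CPM in control and 4.19 and 1.84 at 6 h. Col1a1 was at 1.63 and 1.47 CPM in control and 1.65 and 1.15 at 6 h. Neither Thy1 nor Col1a1 was called in any comparison. Mitochondrial genes held 24.66% and 24.85% of counts in control, 19.63% and 18.89% after 3 h, and 17.45% and 16.61% after 6 h, without overlap between groups. The part of these shifts in the results below was not tested, and in bulk RNA fewer cells of a type and less RNA per cell cannot be told apart.

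Because the genes were chosen with results of these data known, their values are given as a description, and no p-value is attached to them. A gene is said to be called, to have risen or to have fallen where its Benjamini-Hochberg adjusted p in edgeR's quasi-likelihood fit across all 12755 genes was under 0.05. At 3 h against control 2 of the 8 members were called, both higher (Nodal and Fst), where 4.9% of all genes were called, 3.6% higher and 1.3% lower. At 6 h against control 6 of 8 were called, 3 higher (Nodal, Skil and Fst) and 3 lower (Inhbb, Lefty1 and Lefty2), where 29% of all genes were called, 14.8% higher and 14.3% lower. Between 6 h and 3 h 3 of 8 were called (Inhbb, Lefty1 and Smad7), each lower at 6 h, where 1.64% of all genes were called, 0.455% higher and 1.18% lower. Nothing is read from these shares. The count at 3 h was 5 with the DESeq2 test or with no filter on low counts, which added Inhbb, Smad7 and Skil, and 0 without either 3 h library. The count over all genes moved the same way, from 625 to 1447 with DESeq2, 1816 with no filter, and 108 or 111 without a 3 h library. The count at 6 h was 3 without 6 h replicate 2, and that between the times was 1, Inhbb, without any 1 of the 3 h or 6 h libraries. The median log2 fold change of the 8 members was 0.50 at 3 h, -0.14 at 6 h and -0.67 between 6 h and 3 h, beside 0.025, 0.043 and 0.0059 over all genes tested.

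**Figure D1:**
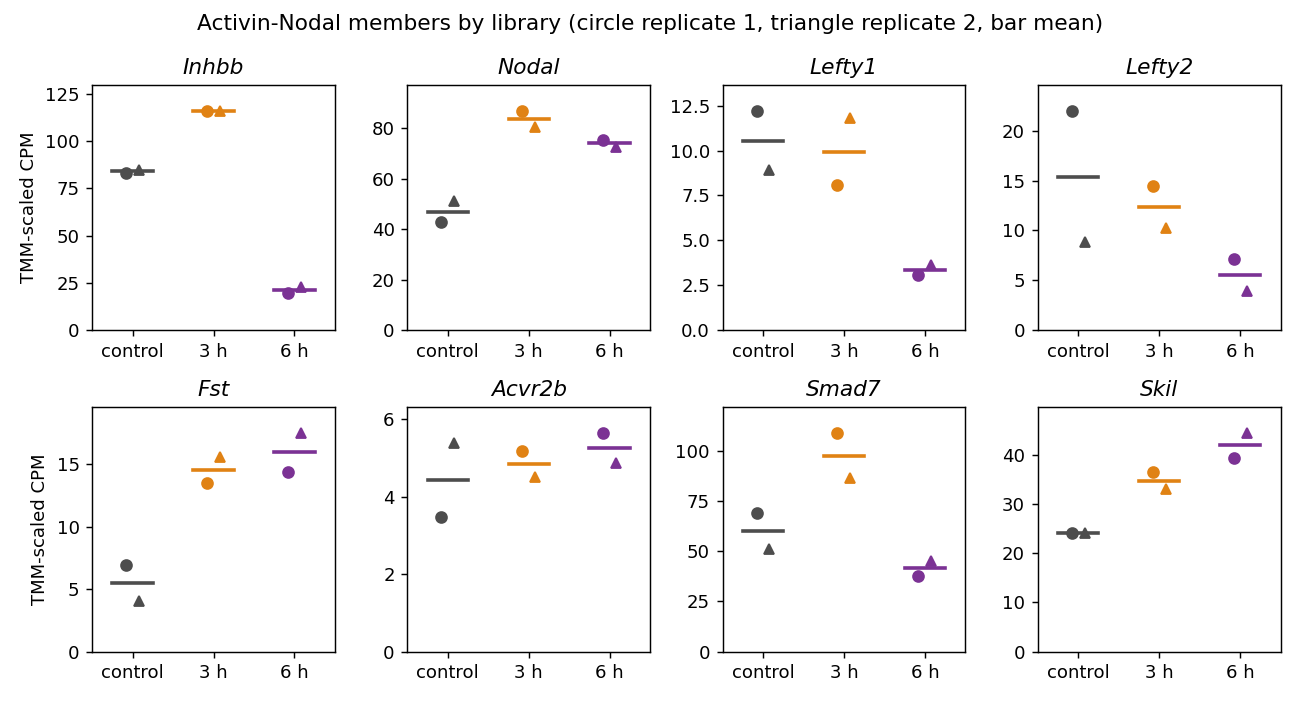
Level of each of the 8 members in TMM-scaled CPM (vertical axes start at 0) in control, 3 h and 6 h libraries. Circles are replicate 1, triangles replicate 2, and bars group means. Inhbb, Lefty1, Lefty2 and Smad7 sit lowest in the 6 h libraries, while Nodal, Skil and Fst sit above control at both times.

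Both ligand genes are shown first with the sequence around their start sites, because Inhbb had the widest change of the members and Nodal, the other ligand, went the other way at 6 h. The promoter table matched 3 of the 8 members (Inhbb, Nodal and Acvr2b). Each sequence below runs 5′ to 3′ on the gene's strand, from 250 bases before to 50 bases after the RefSeq start site (build GRCm38.p6), at chr1:119422199-119422498 on the minus strand for Inhbb and chr10:61417722-61418021 on the plus strand for Nodal. Capitals mark CpG dinucleotides.
Inhbb: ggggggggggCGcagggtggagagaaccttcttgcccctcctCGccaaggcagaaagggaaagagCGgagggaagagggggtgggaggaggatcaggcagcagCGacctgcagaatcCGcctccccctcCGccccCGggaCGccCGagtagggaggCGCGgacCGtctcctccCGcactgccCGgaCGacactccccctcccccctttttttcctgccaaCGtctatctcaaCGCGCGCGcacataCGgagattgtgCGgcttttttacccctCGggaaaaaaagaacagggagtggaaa
Nodal: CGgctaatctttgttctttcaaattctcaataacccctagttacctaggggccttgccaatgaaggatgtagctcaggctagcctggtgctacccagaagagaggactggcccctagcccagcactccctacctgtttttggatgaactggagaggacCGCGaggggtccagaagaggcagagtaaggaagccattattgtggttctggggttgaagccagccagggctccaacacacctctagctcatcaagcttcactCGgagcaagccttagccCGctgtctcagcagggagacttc
The Inhbb window held 23 CpG and was 64.3% G and C, and the Nodal window held 5 CpG and was 54% G and C. The median over 32851 promoter windows of the same length was 7 CpG and 52.7%. Neither window held the SMAD box CAGAC, the FOXH1 motif AATNNACA or the AP-1 motif TGANTCA on either strand. These motifs were in 49.6%, 12.2% and 7.81% of all windows. In the Acvr2b window, at chr9:119401928-119402227 on the plus strand, the SMAD box matched once, on the reverse strand, with its first base 233 bases before the start site. A match or its absence describes only these letters in this window.

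Inhbb (chromosome 1, 119415465 to 119422248 in GENCODE M21 on GRCm38, minus strand) encodes the beta B chain of Activin B. It was at 83.1 and 85 CPM in control, 116 and 116 CPM at 3 h, and 19.5 and 22.5 CPM at 6 h. The 3 groups did not overlap, with 3 h the highest and 6 h the lowest, and the 2 libraries of each group lay close together. The log2 fold change was 0.47 ± 0.13 (SE) at 3 h, which was not called, -2.0 ± 0.13 at 6 h and -2.47 ± 0.13 between 6 h and 3 h. Inhbb thus fell 4.0-fold from its control level by 6 h. Its 6 h calls held under each of the 14 other settings tried, with values of -2.10 to -1.64 against control and -2.57 to -2.34 against 3 h. The 3 h value was called with library size alone, with DESeq2 and with no filter on low counts.

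Nodal (chromosome 10, 61417972 to 61425338, plus strand), the embryonic ligand that induces its own expression and that of its Lefty inhibitors, was at 42.7 and 51.1 CPM in control. After 3 h it stood at 86.8 and 80.4 CPM and after 6 h at 75.5 and 72.5 CPM. Both treated groups lay above control without overlap, and the 6 h libraries lay just below the 3 h libraries. Nodal rose by a log2 fold change of 0.84 ± 0.14 (SE) at 3 h and 0.66 ± 0.14 at 6 h. The difference of 6 h from 3 h was -0.18 ± 0.13 and was not called. The 3 h call was lost without 3 h replicate 1 (0.78) or 3 h replicate 2 (0.89), and the 6 h call without 6 h replicate 1 (0.63) or 6 h replicate 2 (0.69). With library size alone, the 6 h value was 1.02.

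Lefty1 (chromosome 1, 180935022 to 180938400, plus strand) and Lefty2 (chromosome 1, 180893108 to 180899103, plus strand) encode secreted inhibitors that block Nodal and its co-receptor. The genes lie 35918 bases apart, and their coding sequences, each of 1107 bases, were identical at 91.9% of positions with an unbroken identical run of 140 bases. Of all 50-base windows of the Lefty1 transcript, 17.9% occurred whole in the Lefty2 transcript, so the counting could assign a read to the wrong gene of the pair and the values of each are uncertain. Lefty1 was at 12.2 and 8.92 CPM in control, 8.07 and 11.8 CPM at 3 h, and 3.04 and 3.6 CPM at 6 h. Control and 3 h overlapped, and both 6 h libraries were below all 4 others. Lefty1 fell at 6 h, its log2 fold change being -1.68 ± 0.29 (SE) from control and -1.59 ± 0.29 against 3 h, while the 3 h value against control was -0.09 ± 0.28. The call between 6 h and 3 h was lost with library size alone (-1.46) and without 3 h replicate 1 (-1.83), 3 h replicate 2 (-1.28), 6 h replicate 1 (-1.47) or 6 h replicate 2 (-1.71).

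Lefty2 was at 22 and 8.8 CPM in control, 14.5 and 10.3 CPM at 3 h, and 7.13 and 3.87 CPM at 6 h. The control libraries were far apart and spanned both 3 h libraries, and the 6 h libraries were the lowest. The log2 fold change was -0.34 ± 0.43 (SE) at 3 h and -1.50 ± 0.44 at 6 h, where Lefty2 was called lower, and -1.16 ± 0.43 between 6 h and 3 h, which was not called. The 6 h call rested on control replicate 1: without it the value was -0.67 and not called, and the 3 h value turned to 0.49. The 6 h call was also lost without 3 h replicate 1 (-1.50), without 6 h replicate 2 (-1.13), with library size alone (-1.15) and with only the 4 libraries compared (-1.50). Counted together, Lefty1 and Lefty2 held 34.2 and 17.7 CPM in control, 22.5 and 22.1 CPM at 3 h, and 10.2 and 7.47 CPM at 6 h. Provided no shared read was dropped or counted for both genes, the sum does not depend on how reads were divided between the pair. How such reads were treated is not given in the sources used here. The 6 h libraries of the sum were again below all others.

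Fst (chromosome 13, 114452290 to 114458951, minus strand) encodes follistatin, which binds Activins and keeps them from their receptors. It had 94 and 33 counts in control, equal to 6.97 and 4.03 CPM, and was at 13.5 and 15.6 CPM at 3 h and 14.4 and 17.5 CPM at 6 h. All 4 treated libraries were above both control libraries, and the treated groups overlapped. Fst rose by a log2 fold change of 1.37 ± 0.27 (SE) at 3 h and 1.50 ± 0.27 at 6 h, with 0.13 ± 0.25 between the times. The 3 h call was lost with limma-voom (1.36) and with only the 4 libraries compared (1.38). It was also lost without control replicate 2 (1.06), 3 h replicate 1 (1.47), 3 h replicate 2 (1.26), 6 h replicate 1 (1.37) or 6 h replicate 2 (1.37). The span of an annotated antisense gene, Gm47040, overlaps Fst exon sequence, over a length that was not measured. Since the strand setting of the counting is not given in the sources used here, reads from the shared stretch cannot be told apart.

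Acvr2b (chromosome 9, 119402118 to 119434995, plus strand), a type II receptor gene for Activins and Nodal, had the narrowest range of group means among the members. It was at 3.48 and 5.38 CPM in control, 5.17 and 4.51 CPM at 3 h, and 5.64 and 4.87 CPM at 6 h. The libraries of the 3 groups overlapped in each comparison. Its log2 fold changes were 0.15 ± 0.32 (SE) at 3 h, 0.27 ± 0.32 at 6 h and 0.12 ± 0.31 between the times, from 44 to 171 counts per library, so a change of the size seen for Nodal could have been missed.

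Smad7 (chromosome 18, 75367529 to 75395935, plus strand) encodes the inhibitory SMAD that occupies the type I receptor and recruits ubiquitin ligases to it. It was at 69 and 51.2 CPM in control, 109 and 86.4 CPM at 3 h, and 37.9 and 45 CPM at 6 h. The groups did not overlap, and their order was that of Inhbb, with 3 h the highest and 6 h the lowest. Smad7 was lower at 6 h than at 3 h, by a log2 fold change of -1.24 ± 0.19 (SE), and this was called. Neither 0.70 ± 0.19 at 3 h nor -0.54 ± 0.19 at 6 h against control was called. With DESeq2 (0.68 and -0.56) and with no filter on low counts (0.70 and -0.53) both were called. With library size alone the 3 h value (0.92) was called and the 6 h value (-0.18) was not. Without control replicate 1 the values at 3 h and 6 h were 0.93 and -0.31, and without control replicate 2 they were 0.51 and -0.73. The call between 6 h and 3 h was lost without 3 h replicate 1 (-1.06), 3 h replicate 2 (-1.40), 6 h replicate 1 (-1.12) or 6 h replicate 2 (-1.37).

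Skil (chromosome 3, 31095058 to 31122577, plus strand) encodes SnoN, a nuclear co-repressor that binds SMAD complexes at target genes. It was at 24 and 24.1 CPM in control, 36.4 and 33 CPM at 3 h, and 39.3 and 44.4 CPM at 6 h. The 3 groups did not overlap and were ordered control, 3 h and 6 h from lowest to highest, unlike Smad7. Skil rose at 6 h by a log2 fold change of 0.80 ± 0.15 (SE), a call that was lost without 6 h replicate 2 (0.71). The values of 0.53 ± 0.15 at 3 h and 0.27 ± 0.14 between the times were not called. With library size alone (0.76), DESeq2 (0.51) or no filter on low counts (0.53) the 3 h value was called.

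**Figure D2:**
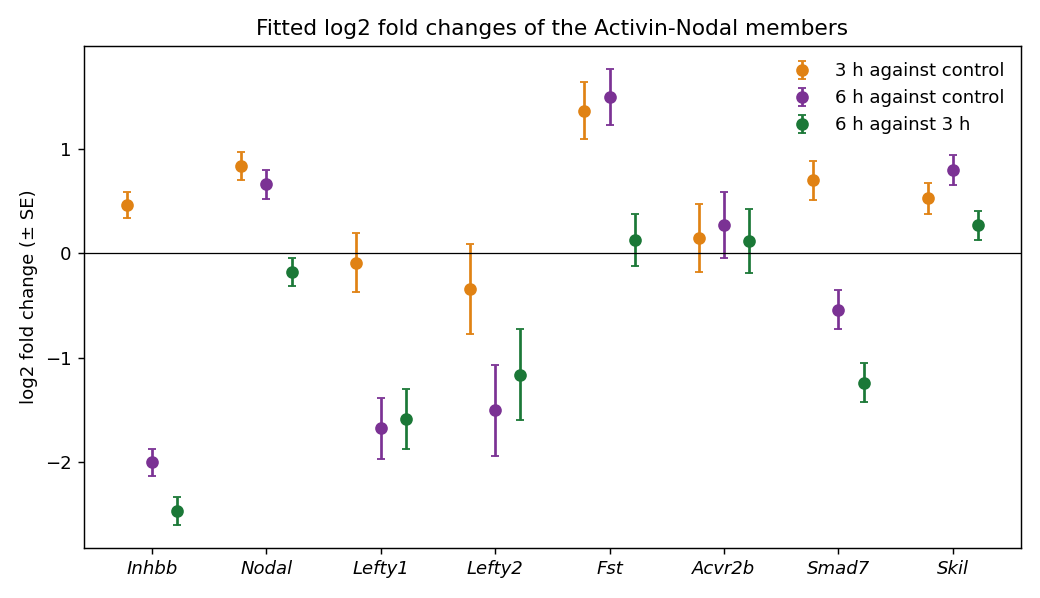
Fitted log2 fold change of each member in the 3 comparisons, with bars of 1 SE on either side. At 6 h against control Inhbb (-2.0), Lefty1 (-1.68) and Lefty2 (-1.50) lie lowest and Fst (1.50) highest; the comparisons share libraries and are not independent.

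The libraries of the groups did not overlap for 5 of 8 members at 3 h against control, each of them higher, where 53.2% of all genes did not overlap, 28.4% higher and 24.8% lower. At 6 h against control they did not overlap for 3 members that were higher and 4 that were lower, where 66.8% of all genes did not overlap, 35.7% higher and 31.2% lower. Between 6 h and 3 h this was so for 1 higher and 5 lower member, where 54.1% of all genes did not overlap, 27.2% higher and 26.9% lower. By the order of libraries alone, called or not, Nodal, Fst and Skil lay above control at both times. Inhbb and Smad7 were highest at 3 h and lowest at 6 h. Lefty1 and Lefty2 overlapped control at 3 h but were lowest at 6 h, and Acvr2b overlapped throughout. Inhbb and Skil at 3 h and Smad7 at both times against control were not called. Groups without overlap were common over all genes, at the shares above, so nothing is read from these orders. Scaling by library size alone moved the median of all genes from 0.025 to 0.25 at 3 h, from 0.043 to 0.40 at 6 h and from 0.0059 to 0.14 between the times. On that scale the same directions held for each member except Lefty1 at 3 h (0.14). The counts of called members became 5 at 3 h, all higher, 5 at 6 h, 3 higher and 2 lower, and 2 between the times, both lower. Over all 12755 genes that scaling called 1373 at 3 h (1316 higher), 4173 at 6 h (3679 higher) and 214 between the times (121 higher).

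Genes whose profile over the 6 libraries lay nearest to 2 members were taken from 5963 genes that reached 20 CPM in a group and were no members. The measure was the Euclidean distance between log2 CPM values, each centred on the gene's own mean, and it carries no test. The members were Inhbb and Smad7, which had the widest ranges of group means among those reaching 20 CPM. Among the genes nearest to Smad7 were Zfp516 (distance 0.337), Hbegf (0.369), Fam214b (0.572) and Zfp317 (0.577). Zfp516 was at 34.8 ± 2.28 CPM in control, 53.4 ± 1.01 at 3 h and 24.5 ± 1.31 at 6 h (SD, n = 2). Hbegf, which encodes an EGF receptor ligand, was at 20.3 ± 8.25, 31.5 ± 5.45 and 15.2 ± 2.71 CPM (SD, n = 2), with control replicates far apart like those of Smad7. Nearest to Inhbb were Spry4 (0.969), Hspa8 (0.979), Chac1 (0.984), Setd1b (0.987) and Sox7 (1.04), all at greater distances than those given for Smad7. Spry4, an inhibitor of receptor tyrosine kinase signalling, was at 342 ± 8.99, 282 ± 18.8 and 87.8 ± 15.5 CPM (SD, n = 2). Of these 5, Chac1 was the one with a higher mean at 3 h than in control, at 38.5 ± 2.92 against 32.1 ± 5.82 CPM (SD, n = 2), and the other 4 had a lower one. The likeness of these genes to the members is fixed by their choice.

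**Figure D3:**
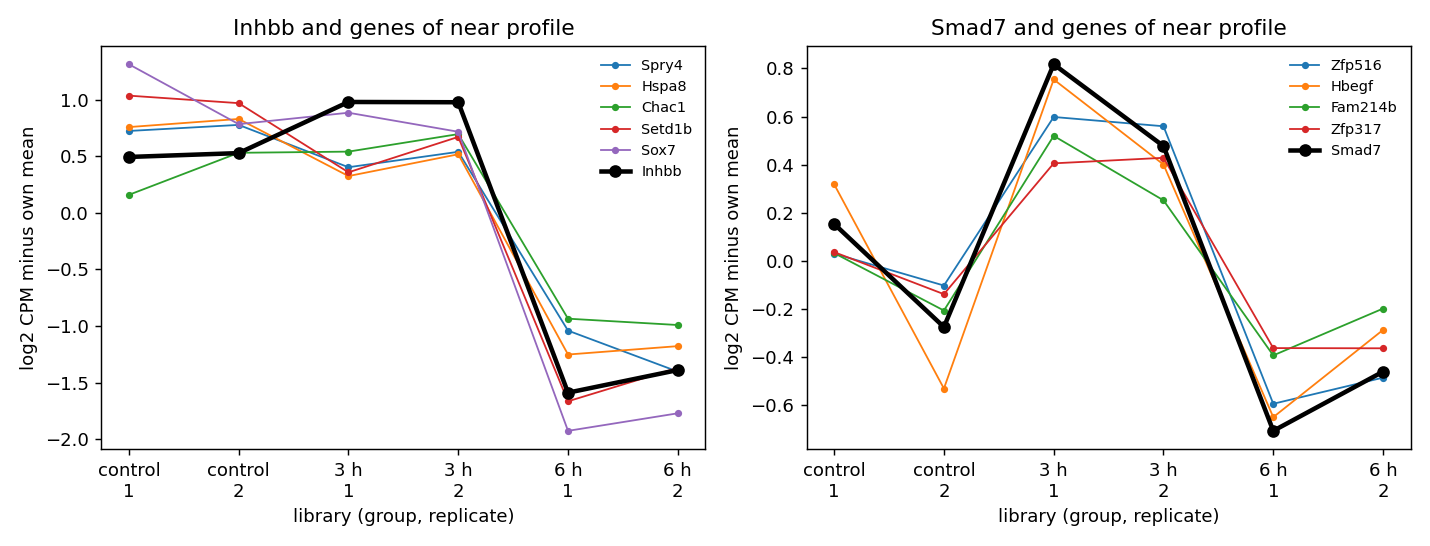
Log2 CPM minus the gene's own mean (vertical axis) in each library for Inhbb and Smad7 (black), the 5 genes of nearest profile to Inhbb and 4 genes of near profile to Smad7 (colours). Lines join libraries only as a guide. The nearest distance was 0.337 for Smad7 and 0.969 for Inhbb, and the choice by distance fixes that the curves look alike.

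Other genes of the pathway came from 6 lists of 48 names, of which 44 were listed in the files and 34 were tested. These lists too were chosen with results of these data known, so their adjusted p-values are not independent evidence. At 3 h 1 of the 34 was called, higher (4.9% of all genes were called). At 6 h 12 were called, 7 higher and 5 lower (29% of all genes), and between the times 1, lower (1.64%). Their median log2 fold changes were 0.17, 0.019 and -0.024 in the same order, beside 0.025, 0.043 and 0.0059 over all genes tested. With library size alone the 6 h split was 12 higher and 1 lower. Without 6 h replicate 1 only 5 were called at 6 h, and without 6 h replicate 2 only 2, so most of the single calls below rest on both 6 h libraries.

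Among the other ligands 1 of 4 tested genes of 10 listed was called at 6 h. Tgfb2, a TGF-beta ligand, had 6 and 0 counts in control, 14 and 13 after 3 h, and 116 and 82 after 6 h. It rose at 6 h by a log2 fold change of 3.70 ± 0.80 (SE; edgeR adjusted p = 0.0105). This rests on very few control counts, and without control replicate 1 the remaining control library was at 0. The call was lost without 6 h replicate 1 (3.58) or 6 h replicate 2 (3.86). Gdf3, which encodes a Nodal-related ligand, was level at 177 and 175 CPM in control, 178 and 178 after 3 h, and 190 and 177 after 6 h, with an SE of 0.10 on each log2 fold change.

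Of 6 tested receptor and co-receptor genes 1 was called at 6 h, lower. It was Tgfbr2, the type II TGF-beta receptor gene, at 23 and 27 counts in control and 4 and 16 at 6 h (log2 fold change -2.73 ± 0.83, SE; edgeR adjusted p = 0.0379). The call was lost without control replicate 2 (-2.20), 3 h replicate 1 (-2.73), 3 h replicate 2 (-2.73), 6 h replicate 1 (-2.0) or 6 h replicate 2 (-4.15), with library size alone (-2.37), and with only the 4 libraries compared (-2.73). The co-receptor gene Tdgf1, which encodes Cripto, was at 153 and 125 CPM in control, 171 and 138 after 3 h, and 117 and 103 after 6 h, and was not called (log2 fold change -0.34 ± 0.15 at 6 h, SE; edgeR adjusted p = 0.132). Acvr2a, the other Activin type II receptor gene, was at 3.56 and 4.64 CPM in control and 7.1 and 9.43 at 6 h and was not called (log2 fold change 1.02 ± 0.37, SE; edgeR adjusted p = 0.0682). Acvr1b, a type I receptor gene for both ligands, had only 4 to 38 counts per library and was not called. Acvr1c, another type I receptor gene, held 1 count in all, below the filter.

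The extracellular inhibitor Dand5, a Nodal-binding protein of the Cerberus family, was at 1.93 and 1.34 CPM in control, 4.46 and 2.37 after 3 h, and 5.91 and 4.87 after 6 h. It rose at 6 h (log2 fold change 1.69 ± 0.43, SE; edgeR adjusted p = 0.0202), a call lost without control replicate 2 (1.48), 6 h replicate 1 (1.54) or 6 h replicate 2 (1.82). Pcsk6, a convertase that cleaves Nodal precursor, was at 171 and 223 CPM in control and 128 and 117 at 6 h. It fell (log2 fold change -0.68 ± 0.20, SE; edgeR adjusted p = 0.0367), which was lost without control replicate 2 (-0.48), 6 h replicate 1 (-0.76) or 6 h replicate 2 (-0.62) and with library size alone (-0.33). Furin, the other convertase listed, was not called, at 17.3 and 20.3 CPM in control and 17.1 and 16.9 at 6 h. Cer1 held 1 count in all.

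The transducers themselves were not called in any comparison. Smad2 was at 35.3 and 40.9 CPM in control, 34.2 and 36.2 after 3 h, and 34.5 and 37.9 after 6 h, with a 6 h log2 fold change of -0.07 ± 0.15 (SE). Smad4 was at 29.4 and 27.4, 22.2 and 24.6, and 25.8 and 29.1 CPM in the same order, with a 6 h log2 fold change of -0.05 ± 0.15 (SE). Smad3 was at 2.74 to 7.41 CPM over the 6 libraries, and with an SE of 0.46 at 6 h a 2-fold change could have been missed. Foxh1, the DNA-binding partner of SMAD2 in Nodal responses, was at 4.89 and 3.79 CPM in control, 4.59 and 6.76 after 3 h, and 10.9 and 9.24 after 6 h. It rose at 6 h (log2 fold change 1.20 ± 0.29, SE; edgeR adjusted p = 0.0172), lost without 6 h replicate 1 (1.07) or 6 h replicate 2 (1.32). Trim33, a ubiquitin ligase that binds SMAD complexes, rose at 6 h from 32.3 and 38.2 to 48.4 and 59.3 CPM (log2 fold change 0.61 ± 0.16, SE; edgeR adjusted p = 0.0216). That call was lost without control replicate 1 (0.49) or 6 h replicate 2 (0.46), and the value was 0.97 with library size alone.

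Among 10 other membrane and intracellular inhibitors 5 were called at 6 h, 2 higher and 3 lower. Ski, the co-repressor related to the product of Skil, was at 107 and 112 CPM in control, 98.9 and 99 after 3 h, and 54.7 and 58.3 after 6 h. It fell at 6 h against control (log2 fold change -0.96 ± 0.12, SE; edgeR adjusted p = 0.00119) and against 3 h (-0.81 ± 0.12; edgeR adjusted p = 0.0155), while Skil rose. Against control the Ski call held in each of the 14 other settings, at -0.60 with library size alone. Against 3 h it was lost without 3 h replicate 1 (-0.81), 3 h replicate 2 (-0.81), 6 h replicate 1 (-0.76) or 6 h replicate 2 (-0.85).

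Tgif1, a homeodomain co-repressor of SMAD2, fell from 363 and 459 CPM in control to 259 and 204 at 6 h (log2 fold change -0.83 ± 0.16, SE; edgeR adjusted p = 0.00764). This call was lost without 6 h replicate 2 (-0.66) and with library size alone (-0.47). Ppm1a, a phosphatase reported to act on SMAD2 and SMAD3, fell from 186 and 192 to 133 and 123 CPM (log2 fold change -0.56 ± 0.11, SE; edgeR adjusted p = 0.00725), lost without 6 h replicate 2 (-0.51) and with library size alone (-0.21). Bambi, a pseudoreceptor for the family, rose from 3.19 and 3.18 to 6.9 and 7.93 CPM (log2 fold change 1.22 ± 0.30, SE; edgeR adjusted p = 0.0189), lost without 6 h replicate 1 (1.31) or 6 h replicate 2 (1.11). Ldlrad4, a membrane inhibitor of SMAD activation, rose from 1.85 and 3.54 to 6.57 and 8.43 CPM (log2 fold change 1.52 ± 0.37, SE; edgeR adjusted p = 0.0178). That call was lost without control replicate 1 (1.08), 6 h replicate 1 (1.68) or 6 h replicate 2 (1.32). The other 5 of this list, Smurf1, Smurf2, Tgif2, Pmepa1 and Nedd4l, were not called in any comparison.

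Of the 6 tested target genes of 9 listed, Ctgf alone was called, at both times. Ctgf, a matricellular protein gene induced by TGF-beta and by YAP, was at 10.2 and 9.29 CPM in control, 45.3 and 47.4 after 3 h, and 36.8 and 35.4 after 6 h. It rose by a log2 fold change of 2.25 ± 0.15 at 3 h (SE; edgeR adjusted p = 0.000187) and 1.89 ± 0.15 at 6 h (SE; edgeR adjusted p = 0.000172), and both calls held in each of the 14 other settings. The mesendoderm genes Eomes, Mixl1, T and Foxa2 had 1 to 145 counts per library and were not called, and Gsc held at most 5 counts, below the filter.

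**Figure D4:**
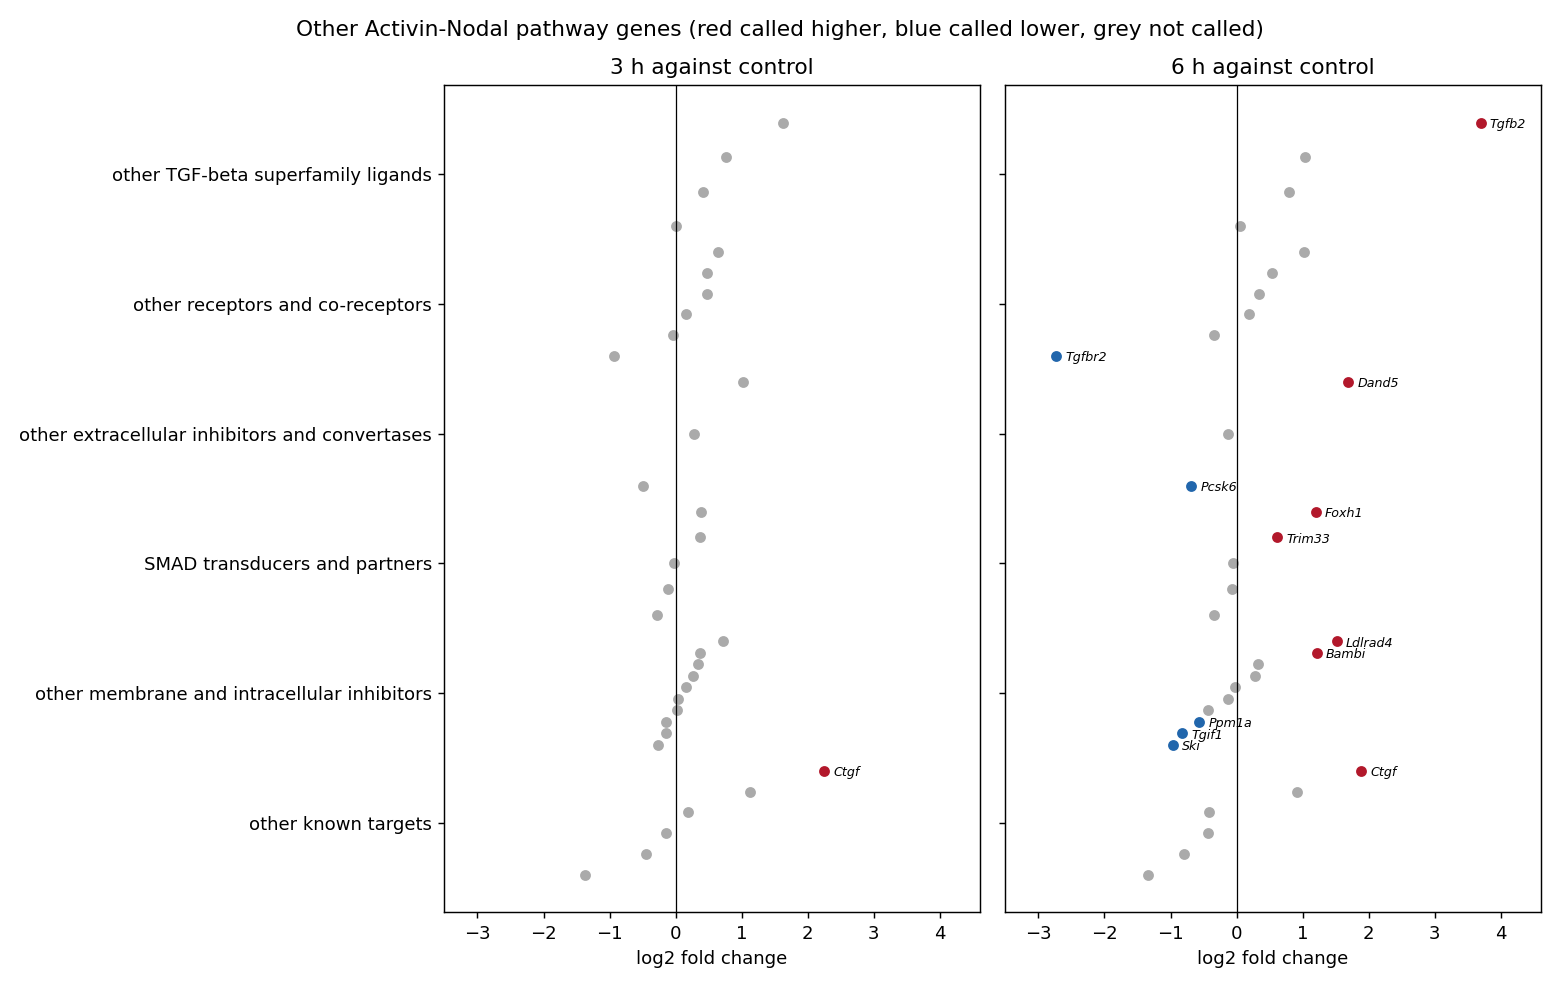
Log2 fold change (horizontal axis) of the 34 tested pathway genes outside the members, by list, at 3 h and 6 h against the same control libraries. Red points were called higher, blue lower and grey not called; 1 gene (Ctgf) was called at 3 h and 12 at 6 h.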

How the data were processed

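RNA abundance was measured by sequencing polyadenylated RNA of 6 libraries in 3 groups, taken from the sample titles. Per gene and library, the values the authors deposited are unnormalised whole-number counts. The genome build is mm10 per the submitters' processing notes, and the aligner, counting program, annotation and strand setting are not given in the sources used here. Genes were filtered with edgeR 4.0.16 (R 4.3.3, filterByExpr: 10 counts in the median library in at least 2 libraries, 15 in total), scaled by TMM and fitted with a mean per group over all 6 libraries (3 residual degrees of freedom). Quasi-likelihood tests were two-sided and adjusted by Benjamini-Hochberg within each comparison. Fold changes are log2 with the SE implied by the F statistic. Depth was 9385447 to 27351079 counts, and floors cover counting error only. Replicates differed beyond counting noise (chi-square per degree of freedom 18.73 to 27.75).

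Pathway genes were named if called in any comparison or needed for a role (Acvr1b, Acvr2a, Tdgf1, Smad2, Smad3, Smad4 and Foxh1), and others were counted. Gdf3, Furin, Acvr1c, Cer1 and the inhibitors and targets named as not called or below the filter fall outside this rule and were added after their values were seen. Near profiles used log2 CPM with a prior count of 2. A few genes covered by these rules are not reported here. The members and lists were chosen with earlier results of these data known. Alternatives covered scaling (DESeq2 size factors, library size alone), tests (limma-voom with limma 3.58.1, DESeq2 1.42.0), filters, a replicate block, the 4 libraries compared alone and leaving out each library. Promoters came from RefSeq on GRCm38.p6 and gene positions and transcripts from GENCODE M21 on GRCm38, the same assembly as mm10.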

Additional observations from a re-analysis of the deposited data

Results flagged for a closer look

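The direct comparison of the treatment times singled out 4 genes, since a difference between 3 h and 6 h of cycloheximide was called for each. The log2 fold change of 6 h over 3 h was -2.47 for Inhbb, -1.59 for Lefty1 and -1.24 for Smad7. It was -0.81 for Ski, which is outside the 8 members. For the 3 members these values are a description, since the genes were chosen with results of these data known. The calls of Lefty1, Smad7 and Ski were each lost when any 1 of the 4 libraries compared was left out, and that of Inhbb was not.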

How the results depend on the processing

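Of the 24 fold changes of members, 24 kept direction and call with DESeq2 size factors and with a floor of 1 CPM in 2 libraries. Genes called at 3 h numbered 625, and 1373 with library size alone, 1447 with the DESeq2 test, 1816 with no filter and 218 with the 4 libraries compared alone. Members called then numbered 5, 5, 5 and 1 in place of 2, and 1 with limma-voom; other pathway genes called numbered 2 with library size alone and with no filter. Genes called between 6 h and 3 h numbered 209, and 508 with limma-voom, 688 with the DESeq2 test, 1063 with no filter and 563 with the 4 libraries alone, and other pathway genes 3, 3, 6 and 4. With the replicate block 426, 3550 and 126 genes and 1, 6 and 2 members were called at 3 h, 6 h and between the times, with the calls of Fst at 3 h (1.37) and Lefty1 between the times (-1.58) lost. Deviations of same-numbered libraries from their group means had r = 0.0942, -0.0243 and 0.0172 across 12755 genes, so the numbers were not taken as pairs. Leaving out 1 library, where the remaining one is assumed to vary like the other groups, gave 108 to 1033 genes at 3 h (1033 without control replicate 1, 108 and 111 without 3 h replicate 1 or 2, 285 and 289 without 6 h replicate 1 or 2), 1312 to 3578 at 6 h (1792 and 1312 without 6 h replicate 1 or 2) and 14 to 595 between the times (14 to 28 without a 3 h or 6 h library, 595 and 578 without control replicate 1 or 2). Members called ranged over 0 to 3 (0 without either 3 h library), 3 to 7 (3 without 6 h replicate 2) and 1 to 3 (1 without any of the 4 libraries compared), and other pathway genes over 1 to 2, 2 to 12 and 0 to 5. With library size alone 1316 of 1373 calls were higher at 3 h (459 of 625 with TMM), 3679 of 4173 at 6 h (1882 of 3703) and 121 of 214 between the times (58 of 209). That scaling turned Lefty1 (0.14), Smad2 (0.11), Smad3 (0.20), Ski (0.078) and Tgif1 (0.080) at 3 h, and Tdgf1 (0.017), Smad2 (0.28), Smad3 (0.025) and Smad4 (0.31) at 6 h. Leaving out 1 library turned others, none of them called with all 6 libraries. At 3 h the ranges were -0.39 to 0.16 for Lefty1, -0.83 to 0.49 for Lefty2, -0.16 to 0.47 for Acvr2b, -0.31 to 1.72 for Acvr1b, -0.30 to 0.36 for Smad3, -0.079 to 0.86 for Ldlrad4, -0.31 to 0.029 for Tgif1, -0.070 to 0.88 for Acvr2a and -0.015 to 0.30 for Tdgf1. At 6 h they were -0.034 to 0.60 for Acvr2b, -0.24 to 1.78 for Acvr1b, -1.15 to 0.19 for Smad3, -0.14 to 0.031 for Smad4 and -0.18 to 0.036 for Smad2. Between the times they were -0.42 to 0.82 for Acvr1b, -0.45 to 0.15 for Pcsk6, -1.13 to 0.22 for Smad3, -0.019 to 0.27 for Fst and -0.029 to 0.11 for Smad2. The causes were not tested. Depth limits genes of low count most: below about 50 counts a library, as for Tgfbr2 and Acvr1b, SE reached 0.83 and more.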

Other observations

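Replicate 1 held more Lefty2 than replicate 2 in every group, at 22 against 8.8 CPM in control, 14.5 against 10.3 CPM at 3 h and 7.13 against 3.87 CPM at 6 h. Lefty1 made up 35.6% of the reads of both Lefty genes in control replicate 1, 35.8% in 3 h replicate 1 and 29.9% in 6 h replicate 1. In replicate 2 the share was 50.3%, 53.5% and 48.2% in the same order. This pattern was noticed after the values were seen and was not tested.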
